A study of Mus musculus with 25 samples.

Results

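Sperm RNA of males fed a Western diet (WD) was set against that of males fed a low protein diet (LPD), a direct contrast of over- and undernutrition that leaves the control diet (CD) aside. The contrast held 10 of the 25 libraries of the series, the 5 named WD and the 5 named LPD by the male in their title. All males were C57/BL6J mice on their diet for at least 8 weeks. The LPD held 9% casein and 24% sugar with 0% milk fat and 0% cholesterol. The WD held 19% casein, 34% sugar, 20% milk fat and 0.15% cholesterol, so protein, sugar, fat and cholesterol all differed. Per the paper, the LPD also held more corn oil and added methionine, and the WD more energy, minerals and vitamins, folic acid among them. The effects of these parts of the diets cannot be told apart. Cells that swam out of sliced epididymides were collected, and total RNA was sequenced in bulk after ribosomal RNA had been blocked. LPD sperm came from males 10, 11, 12, 13 and 15 and WD sperm from males 10, 11, 12, 13 and 14. The treatment field of LPD male 15 reads MD-LPD, the LPD with methyl donors added, that of 1 CD male reads LPD and that of 1 MD-LPD male reads WD, 3 conflicts in which the title was followed. The labels do not say whether a number shared by an LPD and a WD male has a meaning.

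Mature sperm make almost no new RNA. Most of what they carry was transcribed in spermatocytes and round spermatids, where stored messages for protamines, the tail, the acrosome and sperm-specific enzymes are built up before the nucleus is compacted, and some is acquired from the epididymis. A swim-up preparation can also hold epididymal epithelium, leukocytes and connective tissue cells, whose messages are many times more abundant per cell than those of sperm. In bulk RNA, fewer cells of a type and less RNA per cell cannot be told apart.

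All 8 defining markers of sperm were read in all 10 libraries. Their summed level, in normalised counts (reads divided by the size factor of the library), ran from 75682 to 1055675 in LPD (median 187267) and from 183508 to 1147253 in WD (median 759930). Markers of other cells were also present. The 5 of the epididymal epithelium, of which Lcn5 was at 0 throughout, summed to 213305 to 441843 in LPD and 156821 to 316241 in WD, the 4 of fibroblasts to 15401 to 182180 and 18676 to 46588, and the 5 of mononuclear phagocytes to 9150 to 49970 and 11350 to 18740. Depth was 36537455 to 54108158 reads per LPD library and 38382505 to 50866207 per WD library. The share of reads on mitochondrially encoded genes, 21.5% ± 13.7 in LPD and 22.5% ± 8.75 in WD (SD, n = 5), gave p = 0.897 by an exact permutation test (two-sided). The same exact permutation test gave p = 0.230 for Rn7s1 and Rn7s2, near-identical RNAs of the signal recognition particle, at 8.53% ± 4.85 and 13.5% ± 7.09 (SD, n = 5). None of 7 such library measures had an adjusted p under 0.685, where the smallest p that 5 against 5 libraries allow is 0.00794.

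No single gene separated WD from LPD sperm at an adjusted p under 0.05 by limma, among 28311 genes whose mean reached 5 normalised counts. The smallest adjusted p was 0.633. Without adjustment, 1659 genes (5.86%) had a p under 0.05, of which 1148 were higher in WD (4.05% of those tested) and 511 lower (1.8%). Over all genes, 49.5% had a positive log2 difference and the median was -0.01. With edgeR, 0 genes passed as well, and 1185 had an unadjusted p under 0.05. In 45 genes (0.159%) every WD library lay above every LPD library, and in 55 (0.194%) every WD library lay below.

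The protein-coding genes of lowest p among those higher in WD were read at low levels. Nkx6-1, a homeobox factor of pancreatic beta cells and the neural tube on chromosome 5, was at 0 in 4 LPD libraries and 3.01 in LPD male 11, and at 19.1, 11.9, 20.3, 27.8 and 4.03 in WD males 10 to 14. All 5 WD libraries lay above all 5 LPD libraries, with a log2 difference of 3.52 (standard error 0.75, unadjusted p = 9.5e-05, adjusted p = 0.633 by limma). Lipi, a lipase that acts on phosphatidic acid at the plasma membrane, had no read in LPD sperm and 13.3, 32.0, 15.0, 13.9 and 3.36 in WD males 10 to 14. Against a floor of 3 reads over the LPD group, this was at least 25.2-fold higher in these libraries (adjusted p = 0.633 by limma). Emilin3, a glycoprotein of the extracellular matrix, was at 0, 6.01, 5.35, 0 and 0 in LPD and 23.6, 27.3, 19.3, 13.9 and 8.72 in WD sperm, again with no overlap. Sostdc1, a secreted antagonist of BMP and Wnt signals, was at 2.32 ± 2.72 (SD, n = 5) in LPD and 13.1 ± 7.07 in WD sperm without overlap, and the X-linked Gm16430 at 0.669 ± 1.50 and 18.2 ± 8.30. Or52d1 (an olfactory receptor), Tgm6 (a transglutaminase), Tfr2 (the second transferrin receptor) and Slc5a4b (a member of the SGLT carriers) had log2 differences of 2.71 to 3.45, with 3 or 4 of 5 WD libraries above all LPD libraries. Tfr2 and Slc5a4b were at 35.5 and 40.8 in LPD male 10 and at 5.35 or less in the other LPD males, so that 1 LPD library lay within the WD range.

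Gm20521 had the largest fitted difference of these genes, 6.40 on the log2 scale. It was at 0 in all 5 LPD libraries and in WD male 10, and at 312, 372, 201 and 181 in WD males 11 to 14. All of its exons lie within exons of Bcl2l2 and Pabpn1 on the same strand of chromosome 14, so its reads were divided from theirs by the authors' counting and are uncertain. In the methyl donor groups the difference had the other sign, at -6.04 in MD-WD against MD-LPD sperm. Among RNAs that code for no protein, the lncRNA C030014I23Rik was at 46.03, 207, 54.2, 25.6 and 59.9 in LPD males 10, 11, 12, 13 and 15 and at 1237, 194, 635, 645 and 407 in WD males 10 to 14 (log2 difference 3.10, standard error 0.72, adjusted p = 0.633 by limma). Only WD male 11 fell within the LPD range. Exons of Upk2 and other genes on the opposite strand overlap 55.0% of its exonic bases. The lncRNAs Gm45096 and Gm19705 were higher in every WD library, the latter at 0 in LPD and 7.11 to 20.6 in WD sperm, at least 22.6-fold.

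The genes of lowest p among those lower in WD included some of moderate level. Sapcd1 was at 18.4, 7.52, 17.4, 28.1 and 14.4 in LPD and at 0, 3.56, 0, 0 and 4.03 in WD sperm, without overlap (log2 difference -3.17, standard error 0.69, adjusted p = 0.633 by limma), though 67.5% of its exonic bases overlap Vwa7 on the other strand. Ptger3, a receptor of prostaglandin E2, was at 64.4, 115, 151, 134 and 171 in LPD and 109, 37.9, 39.6, 43.0 and 51.7 in WD sperm. WD male 10 and LPD male 10 crossed over, and the other 4 WD libraries lay below all LPD libraries. Rtp4, an interferon-induced chaperone of cell surface receptors, did not overlap, at 256, 309, 257, 446 and 358 in LPD and 186, 243, 167, 162 and 239 in WD sperm (log2 difference -0.69). Gtf2h2, a subunit of the transcription and repair factor TFIIH, was at 267 ± 27.0 against 183 ± 29.3 (SD, n = 5), with WD male 14 at 229 as the one that reached into the LPD range. Snx6, a sorting nexin of the retromer, was at 1166 ± 190 and 838 ± 121, and Cdon, a co-receptor of hedgehog signals, at 1073 ± 222 and 657 ± 138. Syt13 (a synaptotagmin) and Cdca7 (a chromatin protein of dividing cells) were at 0 in 3 and 2 WD libraries. Zc3hav1l and Rps27a, which encodes ubiquitin fused to a ribosomal protein and shares sequence with pseudogenes, completed the 10, at log2 differences of -0.86 and -0.73. Of the noncoding genes, the processed pseudogenes Gm48333 and Gm42804 were lower in every WD library and the TEC gene Gm19514, a class that awaits experimental proof, in 4 of 5.

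**Figure D1:**
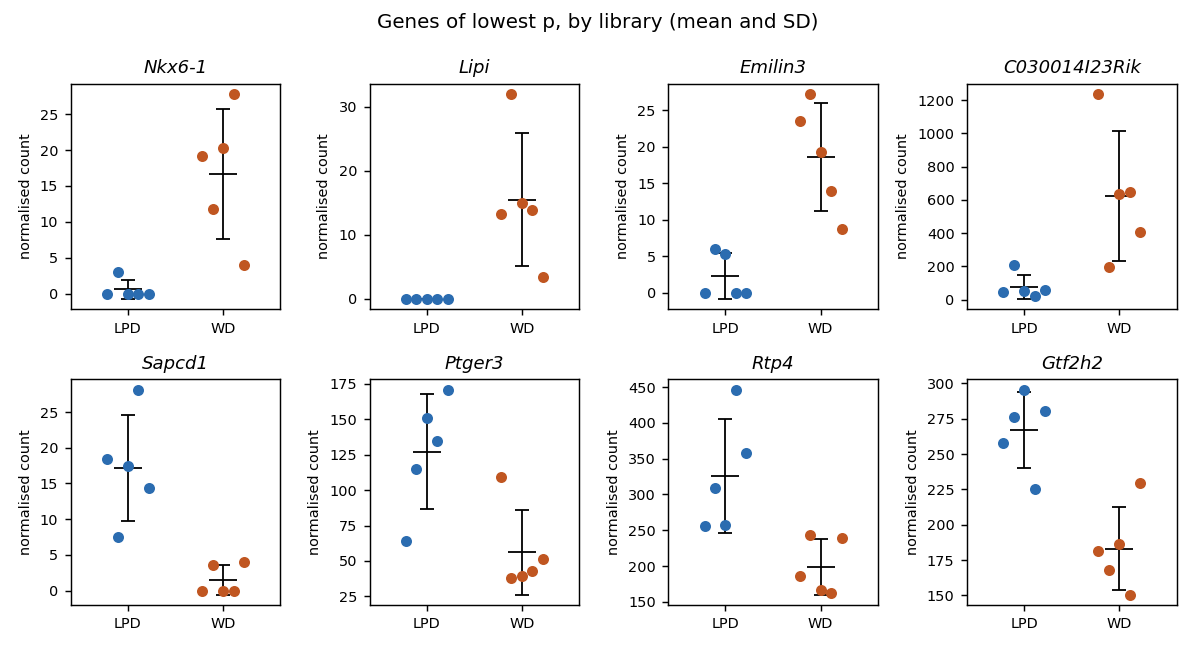
Normalised counts of 8 genes of lowest p in each LPD (blue) and WD (orange) library, ordered by male from left to right, with the mean and SD (n = 5) in black. The top row shows genes higher and the bottom row genes lower in WD. Lipi is at 0 in all LPD libraries, Sapcd1 and Rtp4 do not overlap, and single libraries cross over for C030014I23Rik, Ptger3 and Gtf2h2.

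The Wald test of DESeq2 on the recovered reads passed 12 genes higher in WD (0.044% of those with an adjusted p) and 4 lower (0.0147%). Of these 16, 13 had no read in one of the groups, and 5 had all their reads in 1 library. Mup-ps19 (a pseudogene of the major urinary proteins), Plg (plasminogen) and Cps1 (the first enzyme of the urea cycle), whose families are known from liver, were read at 91.3, 97.2 and 186 in WD male 11 and in none of the other 9 libraries. The marker Alb, serum albumin, was at 1951 in that library and at 12.7 to 314 in the other 9. Trpc2 and Derpc, lower in WD, had 88.4% and 86.4% of their reads in LPD male 12, and all of their exonic bases overlap other genes. Gm7808, a processed pseudogene, was read in LPD males 10 and 15 only, Gm49936 in WD males 10 and 11 only and Igkv4-90, an immunoglobulin segment, in WD male 13 only. C030014I23Rik (adjusted p = 0.0089 by DESeq2) and Sapcd1 (adjusted p = 0.0488) were the calls with reads in both groups that were also among the lowest p of limma. Without WD male 11, DESeq2 passed 3 genes higher and 4 lower, and without LPD male 10 it passed 254 and 59.

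Across all genes, 5 had no read in LPD and reads in every WD library. Besides Lipi and Gm19705, the highest was the pseudogene Gm12189, at 1.34 to 17.7 in WD sperm, at least 12.5-fold higher. In the other direction there were 2, the TEC gene 9330121K16Rik at 1.50 to 11.5 and the lncRNA Gm5106 at 1.34 to 3.95 in LPD sperm, at least 7.22-fold and 4.33-fold lower in WD.

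Genes of sperm and of the germ cells before them had higher mean levels in WD than in LPD sperm. Over 6 lists of sperm genes and 1 of spermatocyte genes, 191 were tested. Of these, 177 had a higher mean log2 level in WD and 14 a lower one, with a median log2 difference of 1.02 against -0.01 over all genes. An unadjusted p under 0.05 was reached by 39 that were higher and by 0 that were lower, where 4.05% and 1.8% of all genes were. The first count was 15 with WD and LPD alone, 17 by edgeR, 90 with equal totals, 128 with a replicate block and 173 with library weights. The block, by male number, takes LPD male 15 and WD male 14 out of the comparison, since the other group lacks their numbers. With library weights 172 of the 191 genes passed the adjusted threshold as higher and 5 as lower, where 7050 and 5979 of all genes did. In 0 of the 191 genes did all WD libraries lie above all LPD libraries, which at 0.159% of all genes is near the background and says nothing of these genes.

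Within the nucleus, all 7 genes of protamines, transition proteins and spermatid linker histones were higher in WD, with a median of 1.18. Prm2, a protamine that packs sperm DNA, was at 58638, 10128, 7028, 45941 and 20460 in LPD and at 52957, 103966, 35684, 71101 and 17578 in WD males, an overlap of both groups (log2 difference 1.19, standard error 0.60, adjusted p = 0.633 by limma). Prm3 was at 236 ± 224 and 545 ± 323 (SD, n = 5), and the linker histones H1f9 and H1f7 had log2 differences of 1.19 and 1.18. Prm1, at 14762 ± 13238 and 22005 ± 11697, had the wider spread for its difference of 0.88, and 63.7% of its exonic bases overlap a gene of the other strand.

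In the flagellum all 39 genes were higher, with a median of 1.06, and 9 had an unadjusted p under 0.05 (4.05% of all genes were higher at that p). Rsph6a, of the radial spokes of the axoneme, was at 555, 120, 91.6, 257 and 193 in LPD and at 481, 695, 598, 935 and 185 in WD males. LPD males 10, 13 and 15 stood within the WD range and WD males 10 and 14 within the LPD range. Rsph1, another radial spoke protein, Tekt4, a tektin of the axonemal microtubules, and Fsip2, of the fibrous sheath, had log2 differences of 0.99 to 1.09. The sum over the list ran from 81754 in LPD male 12 to 1190867 in WD male 11, and that of LPD male 10 was 1116357. In the acrosome and gamete fusion list 32 of 35 genes were higher (median 0.94, 9 with an unadjusted p under 0.05, against the same 4.05%). Acr, the protease acrosin, was at 584, 149, 94.9, 340 and 194 in LPD and 462, 650, 528, 800 and 180 in WD males. Zpbp2, which binds the zona pellucida, had a log2 difference of 1.23, Dcst2, needed for sperm and egg to fuse, 0.91, and Tex101, a germ cell surface protein at lower level (35.7 ± 43.2 and 106 ± 62.9), 2.46.

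Ion channels and transporters of the tail were higher in 20 of 23 genes (median 1.03). Slc9c1, the sperm-specific sodium and proton exchanger, was at 906, 198, 119, 286 and 295 in LPD and 639, 945, 803, 1263 and 242 in WD males. LPD males 10, 13 and 15 lay within the WD range, and WD males 10, 12 and 14 within the LPD range. Efcab9 and C2cd6, both of the CatSper calcium channel complex, and the exchanger Slc9b1 had log2 differences of 1.13 to 1.25. Of the glycolysis list, which mixes sperm-specific with general enzymes, 20 of 23 were higher (median 0.63). Ldhc, the lactate dehydrogenase of germ cells, was at 6911, 1222, 901, 3449 and 1925 in LPD and 5323, 9053, 5225, 8973 and 1857 in WD males. Gk2, a glycerol kinase of the testis, had a difference of 1.20, Gapdhs, the glyceraldehyde dehydrogenase of the sperm tail, 1.11, and Pfkm, also of muscle, 0.54. The spermatid list was higher in 30 of 32 genes (median 1.05), among them Pabpc6, a poly(A) binding protein (1.32), Cetn1, a centrin (1.29), Clgn, a chaperone of spermatocytes and spermatids (1.18), and Lyzl6 (1.27). The meiosis list was higher in 30 of 33 genes (median 1.08), with Tdrd6, of the chromatoid body, at 2908, 700, 584, 1385 and 881 in LPD and 2136, 3839, 3160, 5364 and 1005 in WD males. Meioc, which sustains meiotic entry, Stag3, a meiotic cohesin, and Terb1, which tethers telomeres, had differences of 1.17, 1.19 and 0.92, and Sycp1, of the synaptonemal complex, 1.22.

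**Figure D2:**
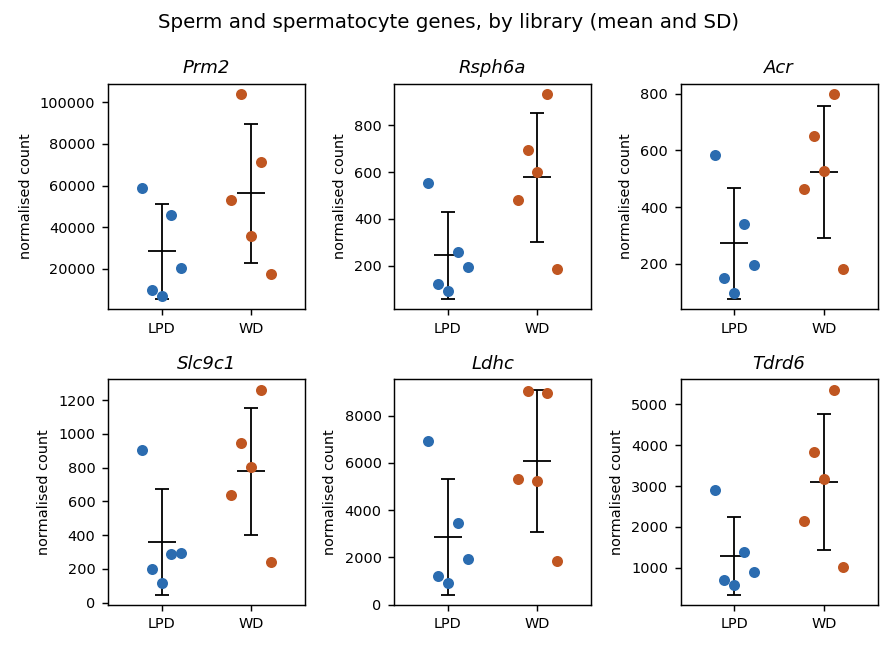
Normalised counts of 6 genes of sperm and spermatocytes in each LPD (blue) and WD (orange) library, ordered by male from left to right, with the mean and SD (n = 5) in black. In every panel the first LPD point (male 10) lies inside the WD range and the last WD point (male 14) inside the LPD range.

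To show what lies upstream of such genes, the 250 bases before the start of transcription were read for the 3 sperm list genes of lowest p that hold TGACGT there (ACGTCA on the other strand), the core of the cyclic AMP response element, to which the spermatid activator CREM binds. The RefSeq promoters are on GRCm38.p6, the capitals mark TGACGT on either strand, and all are given 5′ to 3′ on the strand of the gene. Ldhc lies on the plus strand at chr7:46861013-46861262, Ttll9, a tubulin tyrosine ligase-like gene of the flagellum list, at chr2:152962235-152962484, and Acrbp, which binds the acrosin precursor, at chr6:125049677-125049926.
Ldhc: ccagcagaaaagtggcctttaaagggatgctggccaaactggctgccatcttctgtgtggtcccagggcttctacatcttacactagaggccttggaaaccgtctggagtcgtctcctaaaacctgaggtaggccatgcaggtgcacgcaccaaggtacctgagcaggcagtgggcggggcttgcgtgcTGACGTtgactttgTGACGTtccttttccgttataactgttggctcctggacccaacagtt
Ttll9: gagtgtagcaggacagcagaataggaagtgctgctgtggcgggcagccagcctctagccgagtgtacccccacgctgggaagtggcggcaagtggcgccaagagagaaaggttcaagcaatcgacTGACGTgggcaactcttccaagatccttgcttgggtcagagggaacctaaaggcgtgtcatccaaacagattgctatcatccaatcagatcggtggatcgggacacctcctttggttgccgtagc
Acrbp: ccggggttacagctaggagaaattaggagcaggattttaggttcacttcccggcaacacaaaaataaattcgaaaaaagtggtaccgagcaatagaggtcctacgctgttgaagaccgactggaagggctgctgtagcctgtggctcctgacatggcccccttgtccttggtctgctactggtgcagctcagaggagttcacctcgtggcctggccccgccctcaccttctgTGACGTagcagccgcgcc

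The promoter of Ldhc held the motif at 2 places and the other promoters at 1. Of 157 sperm and spermatocyte list genes with a RefSeq promoter, 12 (7.64%) held it, against 6.47% of all 32851 promoters. These letters are a description of the window and show no binding. Ttll9 and Acrbp had log2 differences of 0.96 and 0.79.

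Sperm gene levels also varied widely within each diet. The median deviation of the 191 genes from their mean over the 10 libraries was 1.07, -1.17, -1.82, 0.05 and -0.62 on the log2 scale in LPD males 10, 11, 12, 13 and 15, and 0.66, 1.27, 0.26, 1.08 and -0.89 in WD males 10 to 14. LPD male 10 stood with the high WD libraries and WD male 14 with the low LPD libraries. The 3 libraries of lowest sperm gene level, LPD males 11 and 12 and WD male 14, also had the largest size factors, 1.33 to 1.50 against 0.679 to 0.934 in the other 7, and the smallest shares of mitochondrial reads, 5.31 to 12.4% against 14.5 to 39.4%. What part this had in the result was not tested. Rescaled to equal totals, 171 of the 191 genes were higher with a median of 0.75, while the median of all genes moved to -0.28.

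Leaving out 1 library at a time, the number of the 191 genes that were higher in WD was 177 to 180. The median was 1.44 without LPD male 10, with 156 genes at an unadjusted p under 0.05, and 1.39 with 145 without WD male 14. It was 0.66 with 4 such genes without LPD male 12, and 0.80 with 7 without WD male 11. In none of these fits did a gene of the lists pass the adjusted threshold. With libraries grouped by the treatment field the median was 0.60, and an unadjusted p under 0.05 was reached by 0 genes that were higher and by 1 that was lower. Over all genes, the count higher in WD at an unadjusted p under 0.05 went from 386 without WD male 11 to 4377 without LPD male 10, and the count lower from 210 without LPD male 15 to 1443 without WD male 14.

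**Figure D3:**
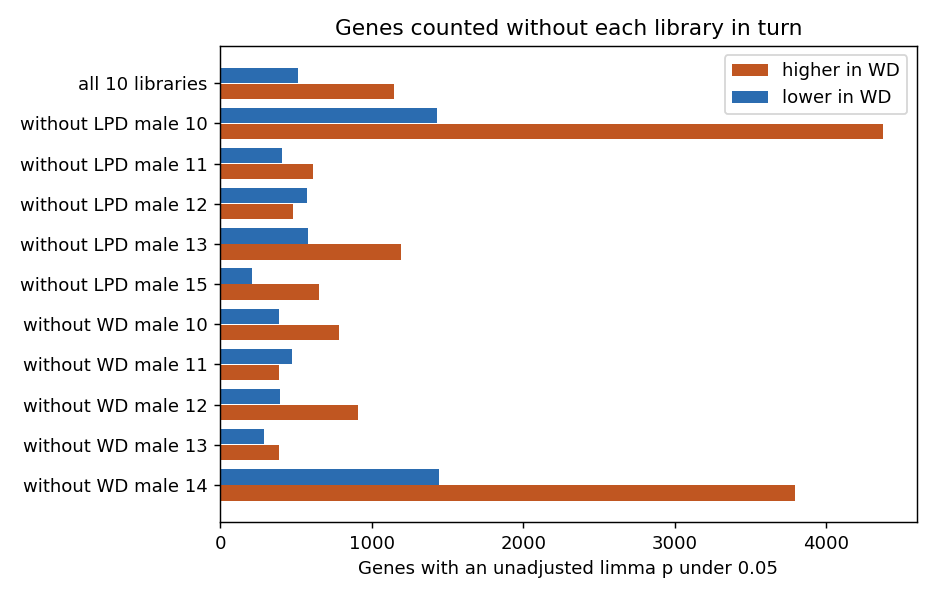
Number of genes with an unadjusted limma p under 0.05 (x axis) higher (orange) or lower (blue) in WD, with all 10 libraries and with each library left out in turn (y axis). With all libraries the counts are 1148 and 511, and they are largest without LPD male 10 or WD male 14.

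Genes of connective tissue and of immune cells lay the other way. In the list of fibroblasts and extracellular matrix 38 of 40 genes were lower in WD (median -0.53, with 3 at an unadjusted p under 0.05, all lower, as were 1.8% of all genes). Without LPD male 15 the median of the list was -0.12. Col1a1, the chain of type I collagen, was at 3936, 7644, 2785, 8789 and 84206 in LPD and 5293, 7967, 3037, 3475 and 4598 in WD males, and LPD male 15 stood far above the other 9 libraries. Igfbp3, which binds insulin-like growth factors, was at 276, 498, 232, 843 and 504 in LPD and 216, 295, 218, 204 and 352 in WD males. Of the mononuclear phagocyte list, 33 of 37 genes were lower (median -0.38), with Clec4a2, an inhibitory lectin receptor, at 480 in LPD male 15, 98.6 to 187 in the other LPD males and 68.3 to 127 in WD males. The defining marker Adgre1, the F4/80 antigen, was at 1739 ± 814 and 1517 ± 623 (SD, n = 5). Hmox1, the haem oxygenase of macrophages and stressed cells, was at 3326 in LPD male 15 and 163 to 533 in the other 9 libraries.

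Over 119 genes of fibroblasts, phagocytes, endothelium and smooth muscle, 99 were lower and 20 higher (median -0.37). These lists were pooled by choice. Of the lists left out, lymphocytes, granulocytes, Leydig cells and Sertoli cells had medians of -0.33, -0.25, -0.22 and -0.33. Adipocytes, erythrocytes and liver-secreted proteins had 0.10, 0.76 and 0.46. In 0 of the 119 pooled genes did all WD libraries lie below all LPD libraries, near the 0.194% of all genes. Their median deviation was 1.24 in LPD male 15 and 0.83 in LPD male 13, and -0.78 to 0.29 in the other 8 libraries. Without LPD male 15 the count was 76 lower and 43 higher and the median -0.11. With libraries grouped by the treatment field, which moves LPD male 15 to MD-LPD, 1 CD male to LPD and 1 MD-LPD male to WD at once, it was -0.04. With a replicate block 74 were lower and 45 higher, with a median of -0.10. That block also takes LPD male 15 out of the comparison, along with WD male 14, since the other group lacks their numbers. The interferon-stimulated list had 41 of 44 genes lower (median -0.34), led in the order of p by Rtp4, and the inflammatory list 34 of 44 (median -0.35), led by Irak4, a kinase downstream of Toll-like receptors (830 ± 164 and 583 ± 105). Without LPD male 15 these medians were -0.22 and -0.14, and that of the phagocyte list was -0.03. Lists of endothelium (15 of 22 lower), smooth muscle (13 of 20) and lymphocytes (22 of 36) had medians of -0.32, -0.25 and -0.33 and 0 genes at an unadjusted p under 0.05. Their members of lowest p were Esam, an adhesion protein of endothelial junctions (-0.54), Actg2, a smooth muscle actin that was higher in WD (0.71), and Klrb1c, a receptor of natural killer cells (-0.95). Pecam1, Acta2 and Ptprc, defining markers of these cells, differed by 0.00, -0.35 and -0.44. In the granulocyte and mast cell list 11 of 13 genes were lower and 2 higher (median -0.25). S100a8 was at 0 in WD males 10 and 11 and at 121 ± 85.9 in LPD against 35.3 ± 47.6 in WD sperm, while Mpo, myeloperoxidase, was higher in WD (2.70). Tpsab1, a mast cell tryptase, and Mmp9 differed by 0.82 and -0.41.

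**Figure D4:**
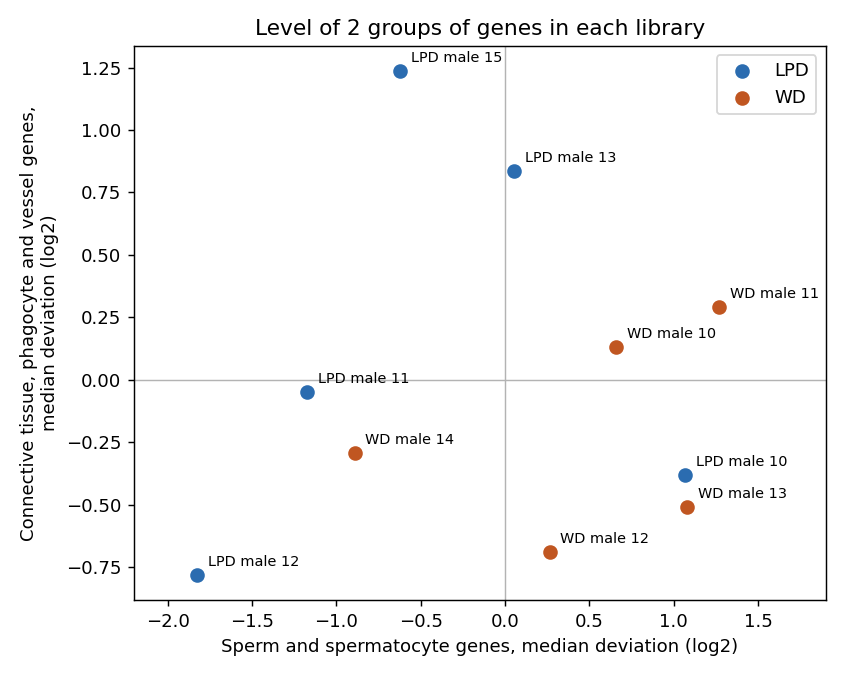
Median deviation, on the log2 scale, of 191 sperm and spermatocyte genes (x axis) and of 119 genes of fibroblasts, phagocytes, endothelium and smooth muscle (y axis) from their means over the 10 libraries, for each LPD (blue) and WD (orange) library. LPD male 10 lies beside WD male 13 and LPD males 13 and 15 lie highest on the y axis.

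Lists drawn from what the diets differ in showed smaller differences. The medians of the cholesterol and fatty acid synthesis lists changed sign without LPD male 12. Of 29 genes of cholesterol synthesis, which is repressed by sterols in most cells, 20 were lower in WD (median -0.12) and 0 had an unadjusted p under 0.05. The lowest p of the list fell on the sterol isomerase Ebp (-0.33). Of cholesterol efflux genes 23 of 30 were lower (median -0.15), with Npc1, which moves cholesterol out of lysosomes, at 1323 ± 531 and 923 ± 115 and the efflux pump Abca1 at 8669 ± 2333 and 6829 ± 1538. Fatty acid synthesis had 17 of 26 genes lower (median -0.13), with Fasn, the fatty acid synthase, at -0.13, the desaturase Scd1 at -0.02 and Elovl2, an elongase of polyunsaturated fatty acids, at 1.04. Fatty acid oxidation had 32 of 44 lower (median -0.18), though Cyp4a14, an omega-hydroxylase known as a target of PPARA in liver, was at 9.22 ± 12.6 in LPD and 35.0 ± 21.0 in WD sperm. In the amino acid starvation response, which a shortage of protein is known to induce in liver, 40 of 48 genes were lower in WD (median -0.19). That median lay within the -0.15 to -0.20 of the housekeeping lists given below. Asns, the asparagine synthetase that ATF4 induces, was at 431 ± 141 and 503 ± 68.7, and Aldh18a1, of proline synthesis, at 453 ± 103 and 321 ± 115. Ddit3 was also higher in WD, at a log2 difference of 0.45. Chac1 had a fitted difference of 0.82, but the groups overlapped. It was at 0 in LPD male 13, at 22.4 to 36.1 in the other LPD males and at 16.1 to 36.8 in WD males. The lists of mTORC1 regulators (33 of 45 lower, led by Lamtor5, of the Ragulator complex) and of one-carbon metabolism (32 of 44 lower, led by the maintenance methyltransferase Dnmt1 at -0.28) had medians of -0.13 and -0.19. Abca1, Fasn, Scd1, Asns, Chac1 and Ddit3 were picked as textbook members after the data were seen.

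Housekeeping lists stood slightly lower in WD. Cytosolic ribosomal proteins were lower in 62 of 79 genes (median -0.15) and splicing factors in 40 of 46 (median -0.20, led by Srsf9, which overlaps Gatc on the other strand). Respiratory chain subunits of the nucleus were lower in 61 of 81 (median -0.16, led by cytochrome c, Cycs) and proteasome and ubiquitin genes in 29 of 41 (median -0.17). Antioxidants, a list of stress genes, were lower in 33 of 41 (median -0.25, led by Hmox1). The proteasome and ubiquitin list held 7 genes lower at an unadjusted p under 0.05, where 1.8% of all genes were, and 1 higher. Psmc6, an ATPase of the regulatory particle, was at 725, 897, 1046, 1116 and 1141 in LPD and 629, 755, 678, 634 and 943 in WD males, Psma3, of the core, at 1852 ± 277 and 1409 ± 261, and the ubiquitin-conjugating enzyme Ube2l3 at 1676 ± 301 and 1295 ± 273. The groups overlapped in each of these, and WD male 14 was the highest WD library. The 15 mitochondrially encoded genes were all higher (median 0.55), led by the ribosomal RNA mt-Rnr2, with 0 at an unadjusted p under 0.05 and the other sign, -0.06, without LPD male 12. Small noncoding RNA genes were higher in 22 of 30 (median 0.38), led by the small nucleolar RNA Snora73a, all of whose bases lie in exons of Snhg3 and Rcc1, and the median was 0.06 without LPD male 12. The immediate early and stress list had a median of -0.06, with the small heat shock protein Hspb1 at -0.91.

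The remaining lists had few genes at an unadjusted p under 0.05. Epididymal epithelium had a median of -0.05, with Clu, clusterin, at 46785 ± 27747 and 22564 ± 6352 and Crisp1, of the sperm surface, at 287209 ± 90447 and 251144 ± 64108. Seminal vesicle and prostate had -0.12, with Svs4 at 540 in LPD male 15 and 11.8 to 150 in the other 9 libraries. Erythrocyte genes were higher in 12 of 14 (median 0.76), with the globin Hbb-bs at 7717 ± 4551 and 12768 ± 8750. The median was 0.38 without WD male 13 and 0.44 without LPD male 12. Adipocyte, Leydig and Sertoli lists had medians of 0.10 (-0.20 with equal totals), -0.22 and -0.33. In them Dgat2, of triglyceride synthesis, differed by 0.48, Cyp11a1, the first enzyme of steroid synthesis, by 2.77 without overlap (0 to 24.8 in LPD and 26.5 to 42.7 in WD sperm), and the nephrogenic and gonadal factor Wt1 by -0.65. Their defining markers Adipoq, Insl3 and Sox9 differed by 0.42, 0.63 and -0.45. Liver-secreted proteins were higher in 32 of 53 genes (median 0.46), led by C8a, a complement component. Without WD male 11, the library with the most Alb, the median was -0.40.

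By class of gene, lncRNAs had a median log2 difference of 0.25, with an unadjusted p under 0.05 for 264 of 4348 that were higher and 26 that were lower (4.05% and 1.8% over all genes). The median of 17492 protein-coding genes was -0.05, with 673 higher and 388 lower at that p. Unprocessed pseudogenes had a median of 0.56, transcribed unprocessed pseudogenes 0.53, processed pseudogenes 0.00 and TEC genes -0.15.

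The same contrast can be drawn in males given the diets with methyl donors, whose 10 libraries are none of those above. By limma, 0 genes passed there, and 648 (2.29%) had an unadjusted p under 0.05, with 415 higher in MD-WD (1.47%) and 233 lower (0.823%). Of the 191 sperm and spermatocyte genes, 178 had a higher mean in MD-WD, with a median of 0.63, where the median over all genes was 0.09 and 58.4% of genes were higher. An unadjusted p under 0.05 was reached by 1 of them, against 39 without methyl donors. The flagellum list had a median of 0.65 with 38 of 39 higher, and the protamine list 0.76 with 7 of 7. The connective tissue, phagocyte and vessel genes had a median of 0.00, with 60 higher and 59 lower, against -0.37 without methyl donors. Liver-secreted proteins had a median of -1.03 and lymphocyte genes 0.61, each of the other sign than without methyl donors, a difference between lists that was not tested. The sign without methyl donors rested on 1 library in each, since the liver median was -0.40 without WD male 11 and the lymphocyte median 0.03 without WD male 14. Erythrocyte genes had a median of 0.90. Of the 1148 genes higher in WD at an unadjusted p under 0.05, 1077 (93.8%) were also higher in MD-WD than in MD-LPD sperm, and of the 511 lower, 401 (78.5%) were also lower. At an unadjusted p under 0.01 by limma, these were 115 of 133 (86.5%) and 36 of 46 (78.3%). Many genes vary together, so such counts are not of independent genes. Over all genes the share with the same sign was 77.3% of those higher in WD and 60.1% of those lower, 68.6% together. Of the genes of lowest p, Nkx6-1 had a difference of 0.88 in the methyl donor groups, Sostdc1 1.82 and Ptger3 -0.37, and Lipi -0.11 and Sapcd1 0.49. A direct test of the difference between both contrasts passed 0 genes by limma, with 302 at an unadjusted p under 0.05 (1.07%, split by direction into 0.749% and 0.318%).

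**Figure D5:**
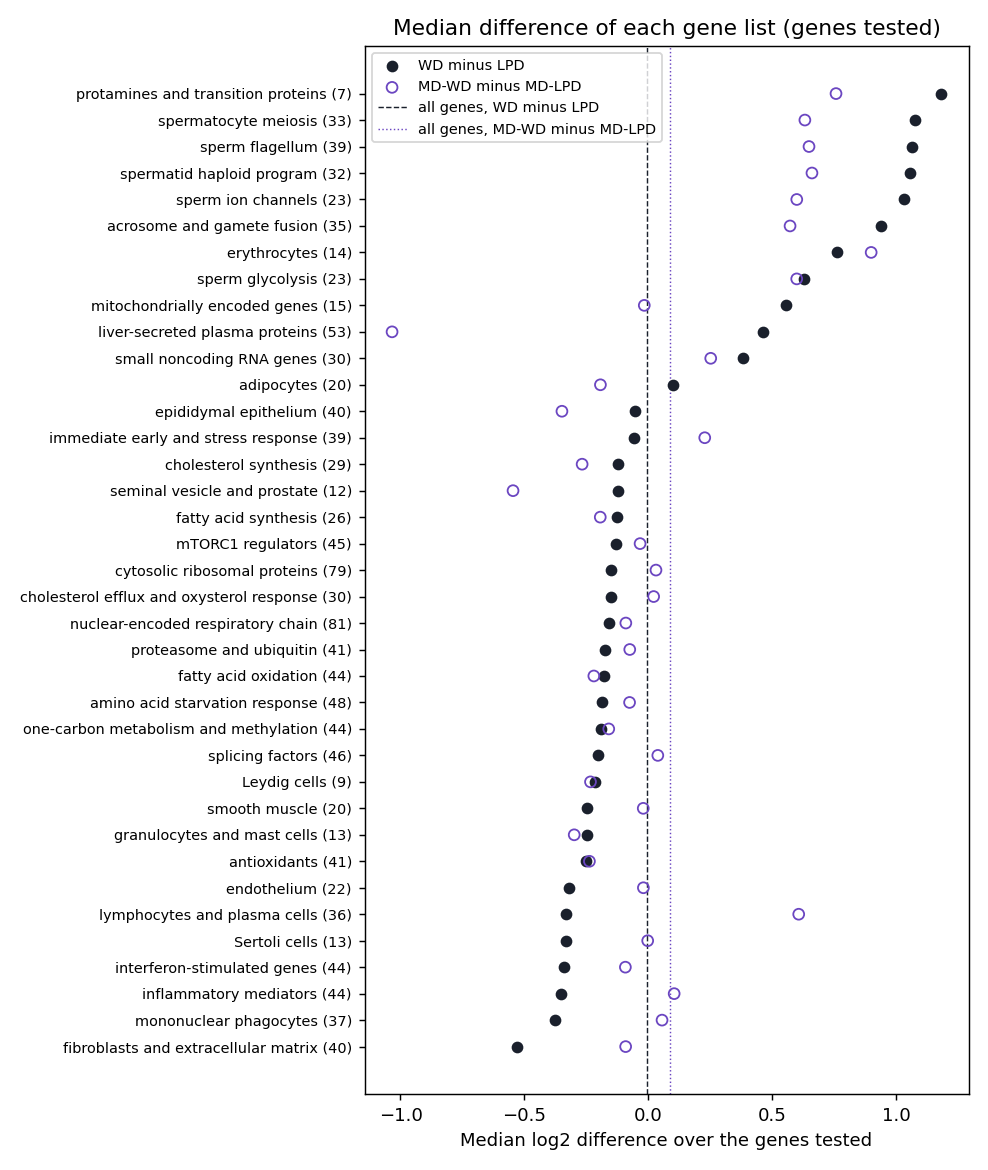
Median log2 difference of each of 37 gene lists (y axis, with the number of genes tested) for WD minus LPD (filled) and for MD-WD minus MD-LPD (open). Dashed and dotted lines give the medians of all genes, -0.01 and 0.09. The sperm and spermatocyte lists and the erythrocyte list lie to the right of both lines in both contrasts, and the fibroblast list lies lowest for WD minus LPD.

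Seen against CD sperm, whose libraries serve as the shared control of both differences, the flagellum list had a median of 1.02 in WD and -0.04 in LPD sperm, the protamine list 1.27 and 0.23, and the meiosis list 0.86 and -0.16. The fibroblast list had 0.56 in WD and 1.09 in LPD sperm and the phagocyte list 0.10 and 0.68. Within LPD and WD, the medians of single libraries had an SD of 1.02, 1.25 and 1.04 for the flagellum, protamine and meiosis lists. For the fibroblast and phagocyte lists it was 0.92 and 0.75. No list was tested against CD, and the treatment field of 1 CD male reads LPD.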

How the data were processed

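Total RNA of sperm was sequenced from a directional kit. Per the labels, the authors used Trim Galore 0.6.7, HISAT2 2.2.1, the GRCm39 build, StringTie 2.2.1 and DESeq2. The deposited signal is 1 value per gene and library, a read count over a DESeq2 size factor. Division by the smallest value above 0 of each library gave whole reads (within 0.01) for 100% of values, and these entered edgeR 4.0.16 and DESeq2 1.42.0. The annotation release and whether counting used the strand are not given in the sources used here, so overlapping genes are uncertain. Of 47575 genes, 47034 were named from GENCODE vM39.

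The main test was limma 3.58.1 (R 4.3.3), with trend and robust options, 5 groups in 1 model and p adjusted by Benjamini and Hochberg. Values were log2(normalised count + 1), and genes below a mean of 5 over all libraries were dropped. Differences on this scale understate the change of low genes. Library measures were compared by exact permutation over 252 arrangements. No 2 of 45 library pairs agreed within sampling noise. Genes named are the 10 protein-coding and 3 other genes of lowest p each way, the 5 of lowest DESeq2 p each way, 1 or 4 members of each of 37 lists, genes without reads in 1 group, and the first marker of each cell type. Cps1, Ttll9, Acrbp and the textbook members named in the lipid and amino acid lists were chosen after their values were seen. The members and lists were chosen with earlier results of these data known. Some genes that these rules would name are not reported here. The fits were tested on simulated data. Alternatives changed the pseudocount, filter, scaling, tool, samples, weights, replicate block and grouping.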

Additional observations from a re-analysis of the deposited data

Results flagged for a closer look

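Single libraries far from the other 4 of their group were looked for in 306 groups of 5 values, by the gap to the nearest library over the range (above 0.71). Chance gives such a gap in about 1 in 20 groups of independent, normally distributed values. Here some groups held 4 values of 0 and many genes vary together, so the rate given by chance is not known. Such a library was found in 41 groups, and no explanation was tested. LPD male 10 was the highest LPD library for the summed acrosome list (153828 normalised counts) and the summed meiosis list (53482), for Dcst2 (643), Efcab9 (277), Slc9c1 (906), Slc9b1 (471), Pabpc6 (1230), Meioc (281) and Sycp1 (2891), and also for Tfr2 (35.5), Slc5a4b (40.8), Mpo (38.1) and Dgat2 (1065), and it was the lowest for Cdon (679) and Aldh18a1 (271). LPD male 15, the library whose treatment field differs from its title, was the highest for Col1a1 (84206), Hmox1 (3326), Npc1 (2245), Dnmt1 (2011), Svs4 (540), Clec4a2 (480), Cdca7 (75.4) and Gm48333 (23.3).

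WD male 11 was the highest WD library for the liver genes Alb (1951), Plg (97.2) and Mup-ps19 (91.3), for mt-Rnr2 (80192) and for the summed Leydig list (1281). WD male 14 was the highest for the summed lists of antioxidants (362337), the nuclear-encoded respiratory chain (93120) and mTORC1 regulators (55551) and for Psma3 (1875), WD male 10 for Ptger3 (109) and WD male 13 for Igkv4-90 (6.33). The remaining values were low or shared between genes. LPD male 11 stood apart for C030014I23Rik (207), C8a (5.26) and Nkx6-1 (3.01), and LPD male 12 for Derpc (1132), Trpc2 (57.5), Gm16430 (3.34) and Gm45096 (3.34).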

How the results depend on the processing

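By limma, 0 genes passed the adjusted threshold under pseudocounts of 0.5 and 5, no filter, a mean of at least 20, equal totals, TMM, both groups alone, no robust step, the treatment field and the removal of any library (0 to 0). DESeq2 passed 11 higher and 3 lower with its own filter and 12 and 4 with that filter set to 0.05. Library weights passed 7050 and 5979, and gave LPD male 11 a weight of 11.4, the largest of the 10. Genes higher at an unadjusted p under 0.05 numbered 1911 without a filter, 647 with both groups alone, 616 by edgeR, 7691 with weights, 236 by the treatment field, 285 without LPD male 15 and WD male 11, and 386 to 4377 without 1 library. Genes lower numbered 786 without a filter, 302 with equal totals, 300 alone, 874 by DESeq2 with either filter, 7478 with weights, 121 by the treatment field, 199 without that pair, and 210 to 1443 without 1 library. DESeq2 calls numbered 5 higher and 1 lower with both groups alone, 2 and 2 without that pair, and 3 to 254 higher and 1 to 59 lower without 1 library. Without LPD male 11, 12 or 15 or WD male 13, 613, 481, 654 and 389 genes were higher, and 292 were lower without WD male 13. The share of genes with the same sign in the methyl donor groups was 62.1% without a filter, 70.7% with a mean of at least 20, 70.6% with equal totals, 69.7% with TMM, 70.2% by the treatment field and 63.4 to 71.4% without 1 library, and 1 gene passed there without a filter. With weights the log2 difference of Adgre1 was 0.74, against -0.18. List medians of cholesterol and fatty acid synthesis, epididymis, seminal vesicle, mitochondrial genes, liver, lymphocyte, adipocyte, Leydig and early response genes changed sign without at least 1 library, and that of phagocytes by the treatment field and with a replicate block, which also turned that of lymphocytes and of early response genes. The causes were not tested.

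Male numbers 10 to 13 occur in both groups. Deviations of these 4 same-numbered pairs correlated at -0.36 to 0.38, with 2 pairs over 0.1, against -0.62 to 0.69 for other pairs, so the numbers were not taken to pair the samples. With a replicate block 0 genes passed the threshold, while an unadjusted p under 0.05 was reached by 2871 genes that were higher and 500 that were lower. LPD male 15 and WD male 14 add nothing to the difference in that fit, since the other group lacks their numbers.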
